A study of Mus musculus with 15 samples.

Results

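A set of 945 mouse genomic regions, of 237612 in all, carried a DNase-seq peak in adult brain, heart, kidney and liver and none in fetal preSertoli cells, embryonic stem (ES) cells or cultured skin fibroblasts. The regions were chosen by the measured peak calls. All 8 peak lists deposited by the authors were merged, with touching or overlapping peaks joined into 1 region, and the regions with a peak in all 4 adult lists and in none of the 4 other lists were kept. They are called adult-shared regions here. They made up 0.398% of all merged regions and, because the rule used the peak calls, that share is a description and carries no test.

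DNase I cuts DNA most readily where nucleosomes are displaced, so peaks of cutting (DNase hypersensitive sites) mark promoters, enhancers, insulators and other stretches bound by regulatory proteins. Sites open in nearly every cell type are mostly promoters of widely used genes and binding sites of the insulator protein CTCF, while enhancers tend to be open in few cell types. Besides their own cell types, adult organs all hold endothelium, blood cells and stroma. Acetylation of histone H3 at lysine 27 (H3K27ac) marks active promoters and enhancers.

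The adult libraries came from whole brain, whole heart, whole kidney and whole liver of adult C57BL/6J mice, flash frozen, pulverized and cut by the standard DNase I protocol. The ES cells (JM8, C57BL/6J) were cultured on gelatin with no feeder layer, and the skin fibroblasts were a primary culture that originated from adult B6 mice (C57BL/6J), both also cut with DNase I. PreSertoli cells, the somatic cells that enclose germ cells in the fetal testis, were sorted at E13.5 and E15.5 from testes of male embryos that were heterozygous for a Sox9-ECFP reporter, from homozygous transgenic C57BL/6J males and CD-1 females (C57BL/6J x CD-1 F1). Their nuclei were cut by endogenous nucleases instead of added enzyme. The labels give no sex for the adult tissues, the ES cells or the fibroblasts. The H3K27ac data came from 2 ChIP-seq libraries of sorted E13.5 preSertoli cells of the same F1 cross. No H3K27ac from an adult tissue was analysed here.

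Each DNase group was 1 library, so there is no replicate spread and no test between tissues. Adult state, whole tissue, freezing and pulverizing go together in these 4 lists, and adult tissue against fetal or cultured cells cannot be told apart from whole tissue against sorted or cultured cells. A whole organ mixes many cell types, and a site open in few cells and a weakly open site in many cells cannot be told apart. The lists held 62218 (fibroblasts) to 96536 (ES cells) peaks, with 63330 in brain, 70532 in heart, 72370 in kidney and 72883 in liver. The number of reads behind them is unknown. The authors' −log10 p began at 1.3 in every list, so a missing peak says only that none was called at that level. Positions are in mm9, no gene annotation of that build was used here, and the tissue labels were therefore not checked against marker genes. No gene names are assigned to regions.

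Open chromatin shared by the 4 adult organs was rarely missing from all of the other cells. Of 29082 regions with a peak in all 4 adult lists, 20859 (71.7%) had a peak in all 8 lists, and the adult-shared regions were 3.25% of them. A further 1486 had a peak in 1 of the other lists, 1943 in 2 and 3849 in 3. Where a single other list shared the region, it was ES cells in 549 cases, fibroblasts in 405, E15.5 preSertoli cells in 366 and E13.5 preSertoli cells in 166.

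Among regions found in exactly 4 lists, the 4 adult lists were nevertheless one of the most frequent combinations. There were 9749 such regions over 70 possible combinations of 4 lists, with a median of 73 regions per combination and a lowest count of 9. The adult-shared regions were the second most frequent at 945 (9.69%). First came the opposite combination, with a peak in both preSertoli lists, ES cells and fibroblasts and in no adult list, at 1134, and next after the adult-shared regions came both preSertoli stages with ES cells and brain, at 685. The 3 organs heart, kidney and liver alone shared 1400 regions with no peak in brain or in the 4 other lists. The corresponding sets without liver, kidney or heart held 506, 340 and 260 regions. Brain was therefore the organ whose list most often kept a region out of the adult-shared set. When brain was not required and its list was left out, 2354 regions met the rule, against 1453 without liver, 1295 without kidney and 1224 without heart. Leaving out ES cells gave 1499 regions, and leaving out both preSertoli lists gave 1921.

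**Figure D1:**
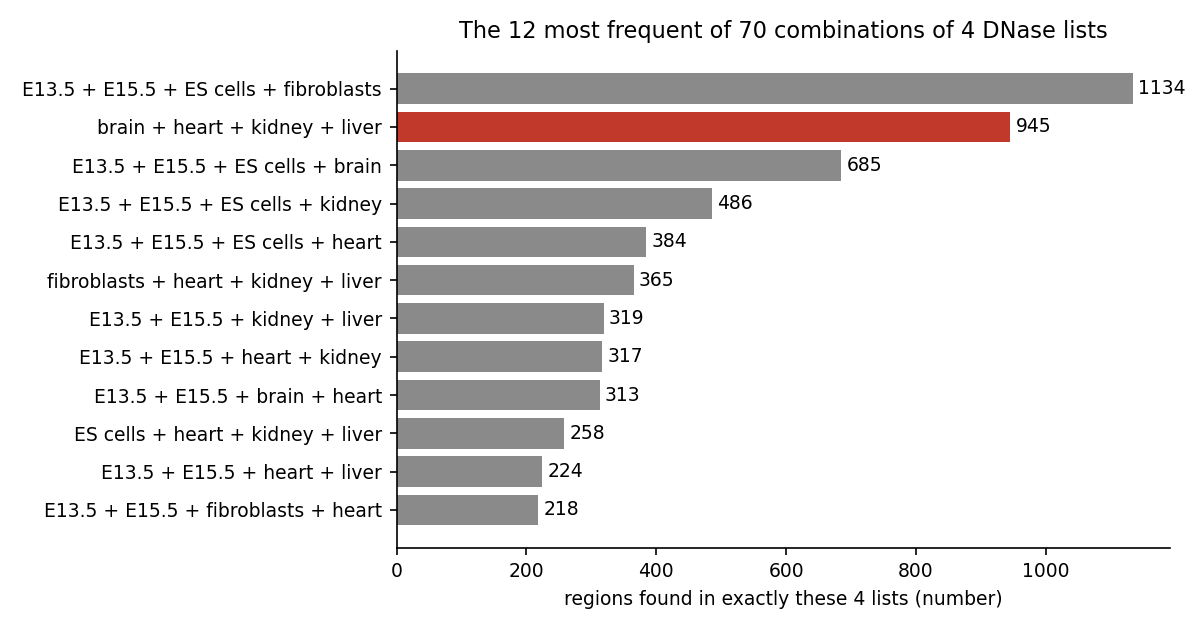
Number of merged regions (x axis) found in exactly the 4 DNase lists named on the y axis, for the 12 most frequent of 70 combinations, with the 4 adult organs in red. The adult organs share 945 regions, second to the 1134 found only in the 4 fetal and cultured lists.

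The peaks of adult-shared regions were weak in most organs, and strongest, relative to the rest of the list, in heart. For each region the best peak in each list was placed by the authors' score and then their signal height, as a rank percent in which 0 is the strongest peak of the list and 100 the weakest. The median rank percent was 48.6 in heart (quartiles 35.2 and 64.3), 57.9 in kidney (43.4 and 73.8), 61.1 in brain (47.3 and 75.5) and 63.9 in liver (45.2 and 79.2). The quartiles of the 4 organs overlap widely. Regions open in all 8 lists had median rank percents of 15.9 in heart, 15.49 in kidney, 17.5 in brain and 19.8 in liver. The 7278 regions open in all 4 adult lists and in 1 to 3 of the others lay between, at 40.4 in heart, 43.5 in kidney, 47.2 in brain and 53.8 in liver. These values belong to the peaks that chose the regions and are given as a description.

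**Figure D2:**
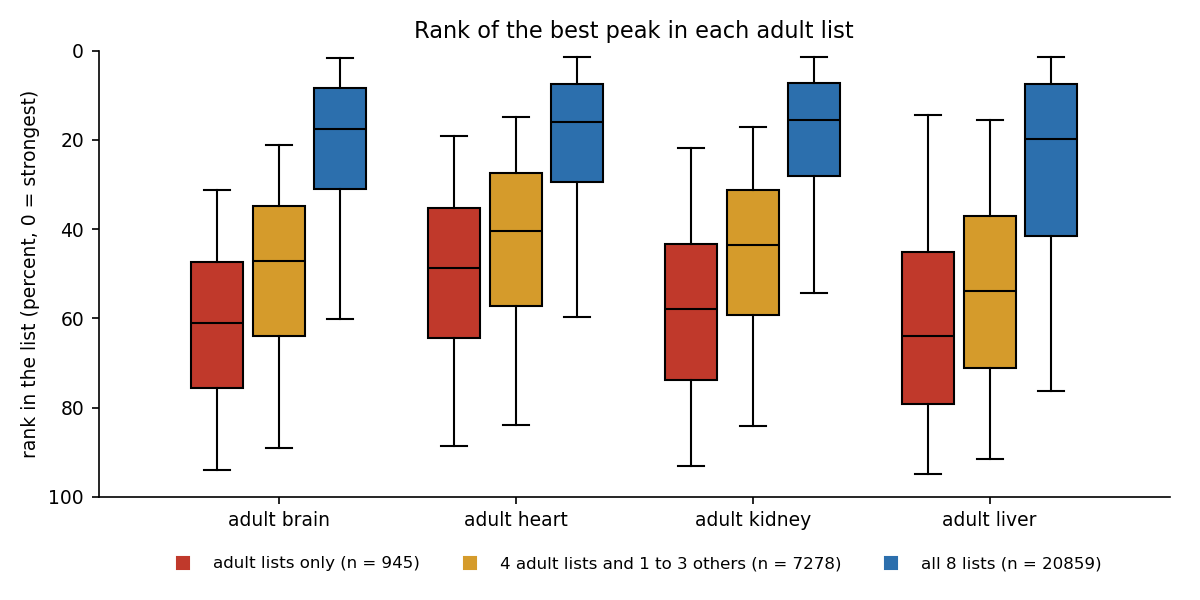
Rank percent of the best peak in each adult list (y axis, 0 is strongest and drawn at the top) for adult-shared regions (red), regions in 4 adult lists and 1 to 3 others (yellow) and regions in all 8 lists (blue). Boxes span the quartiles with the median as a line and whiskers the 5th to 95th percentiles; the red boxes lie lowest in every organ and the red median is highest in heart, at 48.6.

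Few adult-shared regions were strong in every organ. In heart 496 of 945 (52.5%) ranked in the upper 50% of the list, in kidney 334 (35.3%), in brain 279 (29.5%) and in liver 265 (28.0%). All 4 organs had the region in their upper 50% in 36 cases (3.81%), against 22.7% of the regions in 4 adult lists and 1 to 3 others and 75.8% of the regions open in all 8 lists. In 231 cases (24.4%) no organ did. No region was in the top 25% of all 4 lists. The median rank percent was 38.8 in the organ where a region was best and 80.9 in the organ where it was weakest, and the median gap between the 2 was 37.5, against 11.2 for regions open in all 8 lists. In 261 regions (27.6%) the gap exceeded 50, and in 23 it was 10 or less.

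The rank of an adult-shared region in 1 organ went only weakly with its rank in another. Across the 945 adult-shared regions, Spearman's rho between rank percents was 0.33 for kidney and liver, 0.27 for heart and kidney, 0.23 for heart and liver, 0.16 for brain and kidney, 0.16 for brain and heart and 0.08 for brain and liver. The 7278 regions in 4 adult lists and 1 to 3 others had a rho from 0.26 to 0.48 for the same pairs, and the 20859 regions open in all 8 lists from 0.81 to 0.89. In all 3 sets brain and liver had the lowest rho and kidney and liver the highest. The ranks are those of the peaks that chose the regions, and a rule that leaves mostly weak peaks can itself set the size of rho, so these values are a description. The points of each pair are regions of the same 2 libraries and not independent replicates.

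The organ in which an adult-shared region ranked best was heart for 409 regions (43.3%), liver for 191 (20.2%), kidney for 174 (18.4%) and brain for 171 (18.1%). Among regions open in all 8 lists kidney was best for 33.4%, heart for 29.9%, brain for 20.8% and liver for 16.0%. In the set most like the adult-shared regions, those in 4 adult lists and 1 to 3 others, heart was also the most frequent at 38.4%, with kidney at 26.3%, brain at 19.8% and liver at 15.46%. Regions led by liver were the widest, with a median of 508 bp against 365 bp for heart, 357 bp for kidney and 309 bp for brain. They also reached deepest into the strong end of a list, with a median best rank percent of 24.9 against 37.7 for heart, 40.1 for kidney and 45.7 for brain. Of the 23 regions in the top 10% of any adult list, 19 were so in liver, 3 in heart, 1 in kidney and 0 in brain. Liver was thus both the organ with the most regions among its top peaks and the organ that was weakest most often, at 345 regions (36.5%), against 277 for brain, 194 for kidney and 129 for heart.

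The region with the best rank in its weakest organ was chr8:37557825-37558559, 735 bp wide. Its rank percent was 24.7 in brain, 31.0 in heart, 22.7 in kidney and 21.2 in liver, and the authors' −log10 p was 5.00, 3.62, 4.79 and 5.36 in that order. It was open at a similar level in all 4 organs and lay 14001 bp from the nearest peak of any other list. The second was chr16:29001205-29001737, with rank percents of 25.1 in brain, 32.5 in heart, 29.6 in kidney and 13.8 in liver. At the third, chr3:19466743-19467303, they were 26.8, 34.4, 25.9 and 16.9. In these 3 regions heart ranked weakest and liver strongest, the reverse of the medians over all adult-shared regions.

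The fourth, chr12:85496050-85496524, had rank percents of 35.1 in brain, 28.2 in heart, 24.7 in kidney and 18.2 in liver. The fifth, chr2:27067671-27068456, had 22.5 in brain, 35.2 in heart, 15.7 in kidney and 23.1 in liver, and it lay only 142 bp from a peak of another list. The remaining regions of the first 10 had their weakest rank percent between 35.7 and 37.7. Brain was the weakest organ for 3 of these 5 and liver for the other two, chr10:66520885-66521480 and chr5:9056018-9056468. Of the 3, chr14:78783006-78783751 ranked at 36.5 in brain and at 9.45 in liver. None of the 10 overlapped an H3K27ac domain of preSertoli cells. Of all 945 adult-shared regions 5.08% did, so 10 regions are too few to show a difference.

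A further example of unequal opening was chr10:40349438-40351240, eighth by this order and the second widest adult-shared region at 1803 bp. Its −log10 p was 3.41 in brain, 6.20 in heart, 8.89 in kidney and 11.4 in liver. The peak was 513 bp wide in brain, 705 bp in heart, 1087 bp in liver and 1737 bp in kidney. Brain was thus the weakest and narrowest, and a peak of another list lay 206 bp away. The widest region, chr9:121936075-121938223 at 2149 bp, owed its width to heart, where the peak was 1989 bp wide with a −log10 p of 7.80. Its peaks were 506 bp in brain, 455 bp in kidney and 300 bp in liver, with −log10 p of 4.57, 2.53 and 2.11.

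The regions with the highest peak of each organ were unequal between organs, and these 4 were chosen after their values were seen. At chr14:69880552-69881471 the −log10 p was 15.7 in liver, 3.05 in kidney, 1.74 in heart and 1.51 in brain. At chr8:48026368-48027148 it was 10.6 in kidney, 7.67 in heart, 2.80 in liver and 1.42 in brain. At chr17:32042461-32043500 it was 10.3 in heart, 4.68 in liver, 3.40 in kidney and 1.42 in brain. In each of these 3 regions the brain peak was close to the lowest value that was called. The highest brain peak, at chr7:13359437-13360415, reached only 8.25, with 2.03 in kidney, 1.33 in liver and 1.32 in heart. Over all adult-shared regions the median −log10 p was 2.42 in heart, 2.11 in kidney, 2.10 in liver and 2.00 in brain, and values of 5 or more occurred 101 times in liver, 69 in heart, 47 in kidney and 14 in brain. Over all peaks of each list the median was 2.7 in liver, 2.47 in brain, 2.41 in kidney and 2.36 in heart. The scale thus differs between the lists, and the counts are not comparable between organs.

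Many regions sat at the edge of the rule. The weakest adult peak had a median −log10 p of 1.56, and in 391 regions (41.4%) it was below 1.5. Peaks at 1.3 occurred in adult-shared regions in all 4 organs, and ties were ordered by signal height. The lowest signal in the list was 0.0343 in liver, 0.0352 in heart, 0.037 in kidney and 0.0386 in brain, so this order put liver and heart first. The 5 regions just inside by this order had a weakest adult peak at 1.3, in liver at chr17:14661487-14661798, chr3:37851797-37852190 and chr10:128282593-128282917 and in heart at chr2:64692097-64692272 and chr7:148618676-148619018. At the first of these the peaks of the other organs stood at 2.22 in brain, 2.52 in heart and 2.54 in kidney. The 5 regions just outside were kept out by an ES cell peak that also stood at 1.3, the lowest value called. Ties there were ordered by signal height too. The lowest signal was 0.0503 in ES cells, 0.0613 in E15.5 preSertoli cells, 0.0624 in E13.5 preSertoli cells and 0.0639 in fibroblasts. This order put ES cells first, so their place in all 5 regions followed from the signal scale. At 1 of these 5 regions, chr1:24255907-24256364, the adult peaks ran from 2.12 to 5.97. Over all 1486 regions with a single other list, that peak had a median −log10 p of 1.73, and 24.2% of these peaks were in the upper 50% of their list. Most, but not all, of the calls that kept such regions out were thus in the weaker part of their list.

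The peaks of the 4 organs lay on top of each other, as the rule largely requires, because only touching or overlapping peaks were joined into a region. In 923 of 945 regions (97.7%) the best peaks of all 4 organs shared at least 1 bp, with a median shared length of 162 bp. The adult peaks of regions open in all 8 lists did so in 97.0%, so this share was not particular to adult-shared regions. The median distance between the outermost of the 4 peak centres was 29 bp, and 791 regions (83.7%) had them within 100 bp. Regions open in all 8 lists had a median distance of 64 bp, but they were wider, at a median of 1034 bp against 369 bp (quartiles 293 and 531 bp; range 107 to 2149 bp) for adult-shared regions. Within a width class the order was the opposite: the median distance was 16.5 bp against 11 bp below 300 bp of width, 26.5 bp against 18 bp from 300 to under 500 bp, and 98.5 bp against 83.5 bp at 500 bp or more. All merged regions had a median width of 316 bp, regions open in 3 adult lists and no other 438.5 bp, and regions open in the 4 fetal and cultured lists alone 736 bp. The adult-shared regions covered 424 kb in total, and 26 of them held a second peak of 1 organ.

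Many adult-shared regions had a peak of another list not far away. The nearest peak of any of the 4 other lists lay at a median of 3495 bp (quartiles 1091 and 10100 bp). It was within 500 bp for 133 regions (14.1%) and within 5000 bp for 567 (60%), while 9 regions had none within 100 kb. Regions open in 1 adult list and no other lay at a median of 2896 bp, those in 3 adult lists at 2450 bp, and the fetal and cultured regions lay at 2551.5 bp from the nearest adult peak. By list, the median distance from adult-shared regions was 6759 bp to ES cells, 7245 bp to E13.5 preSertoli cells, 9619 bp to E15.5 preSertoli cells and 10331 bp to fibroblasts. The shorter distances went with the longer peak lists. The farthest region, chrX:105732422-105732645, was 224 bp wide and 295337 bp from any such peak, and its rank percents of 81.3 in brain, 79.3 in heart, 77.3 in kidney and 61.3 in liver were all in the lower part of the lists.

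H3K27ac in E13.5 preSertoli cells was a readout that the choice of regions did not use. An H3K27ac domain overlapped 48 adult-shared regions, or 5.08% (95% Wilson interval 3.85 to 6.67, covering counting error only), against 16.1% of all merged regions. This low share was close to that of regions with no preSertoli peak at all, which was 6.44% of 132737, just inside the interval. Regions in all 4 adult lists with no preSertoli peak, a set that includes the adult-shared regions, had 7.41% of 2268 (6.40 to 8.56). That share lay above the interval. Regions in 3 adult lists and no other were at 9.26% (8.18 to 10.5), and among them those without heart were at 5.38%, without kidney at 6.76%, without liver at 9.09% and without brain at 10.6%. Those in 2 adult lists were at 7.35% and those in 1 adult list at 5.81%. Among regions in all 4 adult lists the share rose with the number of other lists, from 7.67% with 1 to 14.7% with 2, 18.1% with 3 and 55.2% with all 4. The regions open in the 4 fetal and cultured lists alone had 19.4%. The domains come as 1 list for 2 libraries, so the shares have no replicate error.

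**Figure D3:**
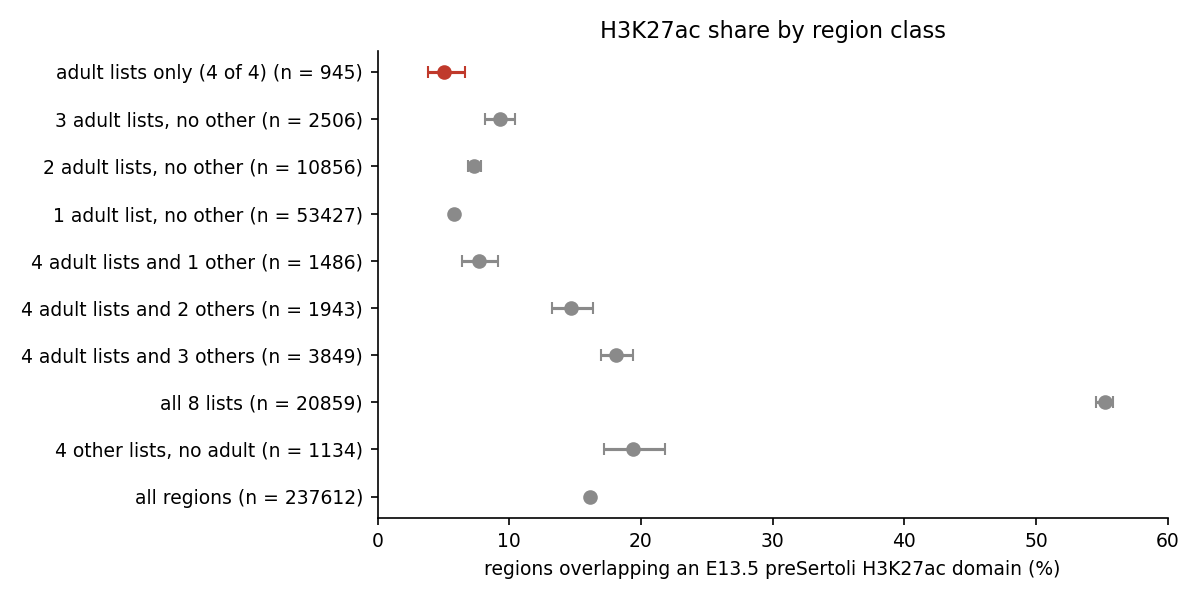
Percent of regions that overlap an H3K27ac domain of E13.5 preSertoli cells (x axis) in each class of regions (y axis, with the number of regions), with 95% Wilson intervals as bars. Adult-shared regions (red) are at 5.08%, below the 16.1% of all regions and the 55.2% of regions open in all 8 lists.

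Width was a further difference between these classes. Below 300 bp 4.72% of adult-shared regions overlapped a domain, from 300 to under 500 bp 3.58%, and at 500 bp or more 7.72%. Regions with no preSertoli peak had 6.52%, 6.21% and 6.66% in the same classes, and regions in 3 adult lists and no other had 6.81%, 10.4% and 9.58%. The adult-shared share was the lower one in 5 of these 6 comparisons, but its intervals included the share of the first set in the narrowest and widest classes and met the intervals of the second set in those same classes. Proximity to other peaks moved with the result too, because among the 812 adult-shared regions with no peak of another list within 500 bp the share was 3.08%. With a domain counted up to 1000 bp away it was 7.94%.

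The 48 marked regions lay in 48 different domains with a median width of 3200 bp, against 2200 bp for all 28586 domains. An E13.5 preSertoli DNase peak lay elsewhere in 32 of these domains (66.7%, against 70.1% of all domains with such a peak), and 15 held a preSertoli peak of neither stage. The first share was near that of all domains, but those had a narrower median width and the shares were not matched by width. By the rule no preSertoli peak lies in an adult-shared region, so any such peak of the domain had to be at another place. Of the 48 regions 33 were wholly inside their domain. Over all 48 the median distance to the nearer domain edge was 299.5 bp, with a region that crossed an edge counted as negative. The marked region with the best rank in its weakest organ was chr10:41970966-41971547, with rank percents of 39.5 in brain, 19.2 in heart, 17.5 in kidney and 18.0 in liver. It lay 1149 bp from the nearest peak of another list. The second, 398 bp wide on chromosome 18, ranked at 30.3 in brain, 31.7 in heart, 23.5 in kidney and 51.7 in liver. The third, chr2:18508583-18509849, ranked at 37.7 in brain, 26.5 in heart, 35.7 in kidney and 52.5 in liver. The third widest adult-shared region, chr14:69956290-69958022 at 1733 bp, was also marked, and its ranks were weak at 44.8 in brain, 56.2 in heart, 85.6 in kidney and 86.3 in liver.

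Chromosome X held more of the adult-shared regions than its share of all regions. It carried 68 of 945, or 7.20% (5.72 to 9.02), against 1.34% of all merged regions and 2.15% of regions in all 4 adult lists, a ratio of 5.39 to the first and 3.35 to the second. The next highest ratio to all regions was 1.54 on chromosome 19 (44 regions) and the lowest among the autosomes was 0.587 on chromosome 8 (33 regions). Chromosome Y had none. Regions in 3 adult lists and no other had 2.15% on X, but those without heart had 5.77% (3.53 to 9.30) and those without kidney 3.53%, against 1.78% without liver and 1.29% without brain. Regions open in all 8 lists had 1.81% and regions in the 4 fetal and cultured lists alone 2.20%. Among the 25 combinations of 4 lists with at least 100 regions, the adult-shared set had the highest share on X, the next being 4.24% and the median 0.639%. Over all 70 combinations it was second to E15.5 preSertoli cells with brain, heart and liver, where 7 of 44 regions (15.9%) were on X. Without the brain list the share was 3.65% of the 2354 regions that then met the rule.

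**Figure D4:**
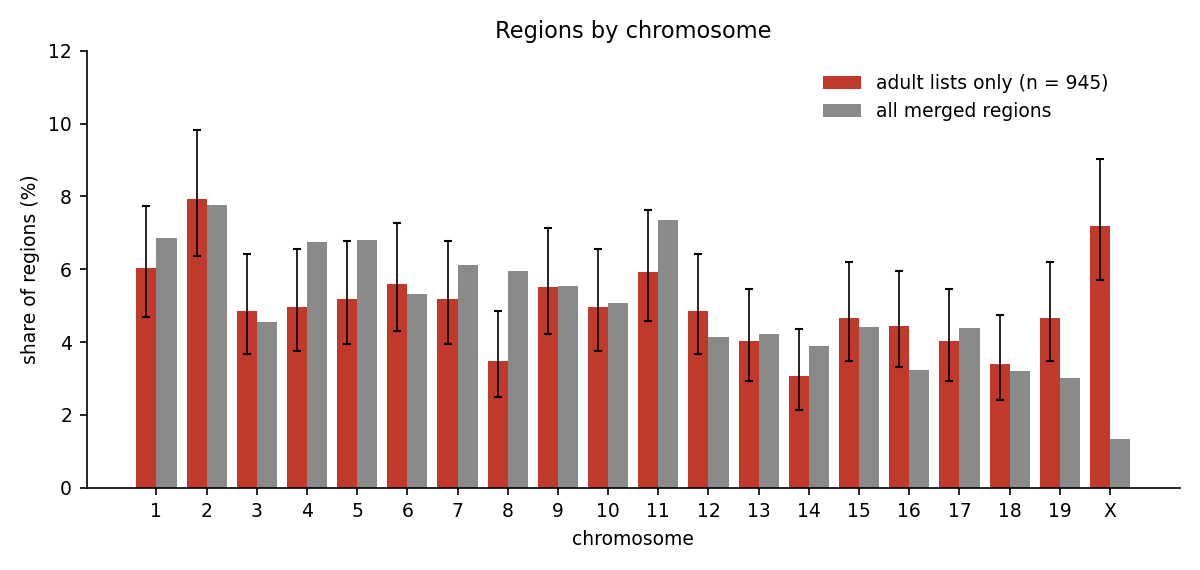
Share of adult-shared regions (red, with 95% Wilson intervals) and of all merged regions (grey) on each chromosome, in percent (y axis). Chromosome X holds 7.20% of the adult-shared regions and 1.34% of all regions, the widest gap in the plot.

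Width and distance moved with the share on X. Below 300 bp 42 of 254 adult-shared regions (16.5%) were on X, from 300 to under 500 bp 23 of 419 (5.49%), and at 500 bp or more 3 of 272 (1.10%). All merged regions had 1.51%, 1.15% and 1.21% in these classes, and regions in 4 adult lists and 1 to 3 others had 6.00%, 2.49% and 1.73%. The excess over all regions was thus found below 500 bp and not above. The X regions had a median width of 282 bp against 382 bp on the autosomes, and a median distance to the nearest peak of another list of 13753 bp against 3111 bp. Of the 378 adult-shared regions with no other peak within 5000 bp, 13.49% were on X. Over the 68 X regions the median rank percent was 60.9 in heart against 47.9 on the autosomes, and 65.5 against 57.3 in kidney. It was 63.4 against 61.1 in brain and 64.0 against 63.7 in liver. By these medians the lead of heart seen on the autosomes was small on X. Heart was still the organ that ranked best most often there, for 25 of 68 X regions (36.8%), against 43.8% on the autosomes. Liver was best for 18 X regions, brain for 15 and kidney for 10. The X regions spread over 47 windows of 1 Mb, with at most 5 in one. An H3K27ac domain overlapped 1 of the 68 (1.47%), against 47 of 877 (5.36%) on the autosomes.

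The 8 libraries differed in their signal from the sex chromosomes. Peaks on Y numbered 70 in E13.5 preSertoli cells, 61 in E15.5 preSertoli cells, 115 in fibroblasts and 0 in ES cells and in each adult organ. In the 377 X regions open in all 8 lists, the median log2 signal on X minus that on the other chromosomes was -0.44 in E15.5 preSertoli cells, -0.19 in fibroblasts and -0.09 in E13.5 preSertoli cells, each below the range of single autosomes treated the same way. It was 0.07 in ES cells, inside that range. In the adult organs it was 0.09 in liver, above the range, 0.01 in kidney, within it, -0.05 in heart and -0.06 in brain, both below it. The 3 lists with Y peaks were thus the 3 with the lowest X signal, and none of them is an adult list. The part of these differences in the share of adult-shared regions on X was not tested.

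Which other list shared a region moved the share on X as well. Of regions in all 4 adult lists, 6.02% were on X where only E13.5 preSertoli cells also had a peak (10 of 166), 5.19% where only E15.5 preSertoli cells did (19 of 366), 2.91% where only ES cells did (16 of 549) and 2.22% where only fibroblasts did (9 of 405). The first 2 have intervals that overlap that of the adult-shared regions, and the last 2 do not. A high share was also found with more than 1 other list, at 6.33% of 537 regions (4.57 to 8.72) with E13.5 preSertoli cells, ES cells and fibroblasts and 5.23% of 306 with E13.5 preSertoli cells and ES cells. With both preSertoli stages and neither cultured list it was 1.38% of 435.

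**Figure D5:**
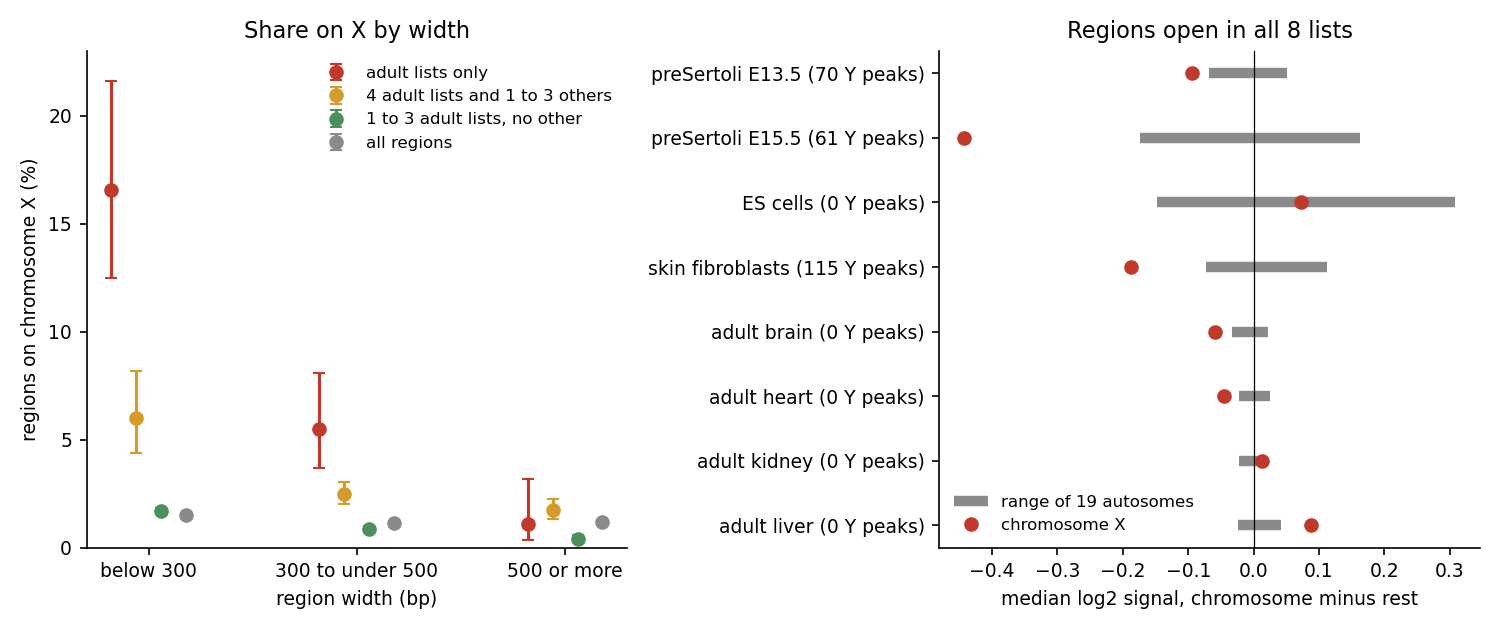
Left, percent of regions on chromosome X (y axis) by region width (x axis) for adult-shared regions (red) and 3 other sets, with 95% Wilson intervals; the red points fall from 16.5% below 300 bp to 1.10% at 500 bp or more. Right, median log2 signal on X minus the rest (red, x axis) in regions open in all 8 lists, beside the range over the 19 autosomes (grey), with the number of Y peaks of each library; E15.5 preSertoli cells are lowest at -0.44.

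Adult-shared regions were mostly alone. The nearest other adult-shared region lay at a median of 594328 bp, against 210459 bp between regions open only in the 4 fetal and cultured lists, a set of 1134. In windows of 100 kb, 52 windows held 2 or more adult-shared regions, with 109 of the 945 (11.5%) in them, against 27.1% for the fetal and cultured set and 27.4% for the 1400 regions of heart, kidney and liver alone. The number of regions differs between the sets, and a larger set fills windows more often.

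The densest window was on chromosome X, where 4 of the 16 merged regions between 100600001 and 100700000 were adult-shared, all within 6925 bp. The first, chrX:100672863-100673201, had a −log10 p of 3.06 in brain, 3.33 in heart, 2.67 in kidney and 2.35 in liver. The fourth, chrX:100679427-100679787, had 2.40, 3.35, 2.57 and 1.90. The middle ones, chrX:100676935-100677294 and chrX:100678474-100678747, had values from 1.77 to 2.54. The 4 regions were alike in being of low to middle strength in every organ. A second window on X, from 50900001 to 51000000, held 3 of 6 merged regions, with −log10 p from 1.75 to 3.09.

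A window on chromosome 17, from 34700001 to 34800000, held 3 adult-shared regions of 37 merged ones. Of these chr17:34701681-34702271 was strong in heart alone, with a −log10 p of 6.36 against 2.37 in kidney, 1.75 in liver and 1.46 in brain. The window on chromosome 14 from 69900001 to 70000000 also held 3, of 55 merged regions, and all 12 best peaks there ranked at 44.8 or weaker. Only 4 windows held 3 or more, so the fifth was taken from those with 2, by the summed rank of their regions. This window, on chromosome 3 from 19400001 to 19500000, held 2 of 7 merged regions. They were chr3:19466743-19467303, the third region by its weakest organ, and chr3:19422170-19422526, with rank percents of 45.8 in brain, 52.6 in heart, 35.1 in kidney and 56.9 in liver.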

How the data were processed

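Per the submitters' processing notes, the tools named for the DNase-seq data are BWA 0.6.1-r104, SAMtools and bedtools, those for the ChIP-seq data are CASAVA 1.8.2, Bowtie and SICER, and the build is mm9. Which DNase peak caller and threshold were used is not given in the sources used here. The DNase lists deposited by the authors were each called on 1 library and hold a score, a signal height and a −log10 p per peak, with no header, so their nature was read from the values. Score and signal were used mainly to rank peaks within a list. The log2 of the deposited signal in regions of all 8 lists was compared between chromosomes within a list. Signal also ordered ties in −log10 p across lists, for the regions just inside and just outside the rule. The H3K27ac file deposited by the authors gives positions of domains without a value. Read depth of the DNase lists is unknown, so Wilson 95% intervals cover counting error only.

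Lists were merged in Python 3.11.15 with numpy 2.4.6, pandas 2.3.3 and scipy 1.17.1, checked against bedtools 2.31.1 and tested on simulated data. Plots used matplotlib 3.10.9. Overlap means at least 1 bp. Named regions were the 10 with the best rank in their weakest organ, the widest 3, the best 3 with and without H3K27ac, the 5 windows of 100 kb with the most members, the 5 just inside and just outside the rule, and the farthest from other lists. The members and lists were chosen with earlier results of these data known. Alternatives changed the joining distance, the peaks used, the lists required, the overlap and the windows. The RNA-seq table names genes without positions and was not used here. With no mm9 genome or annotation used here, genes near regions, their RNA levels, motifs and sequences were not analysed here.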

Additional observations from a re-analysis of the deposited data

How the results depend on the processing

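Of 64 alternative values, 40 stayed within the limits set for a count (1.5 times) or a share (its interval), among them all ranks and widths by organ. Those for ranks and widths could hardly move and say little about stability. Ranking by signal height gave the same values, and using all peaks of a list raised their number from 945 to at most 962. The count of 945 adult-shared regions became 531 with the upper 50% of each list. These 531 are not a subset of the 945, because the 4 other lists were cut too and regions were formed anew. Only 36 of the 945 ranked in the upper 50% of all 4 organs. The count became 36 with the upper 50% of the adult lists only, and 378 with no other peak within 5000 bp. It became 1499 without ES cells, 2354 without brain, 1453 without liver and 1921 without both preSertoli lists, and lay between 812 and 1352 otherwise. The H3K27ac share of 5.08% became 7.94% with a domain within 1000 bp and 3.08% with no other peak within 500 bp. Among the 36 regions in the upper 50% of all 4 organs it was 2.78%, with an interval of 0.492 to 14.2 that includes 5.08%. The ratio of 5.39 for X became 3.35 against regions of all 4 adult lists. The share of 7.20% on X became 3.20% of the 531 regions found with the upper 50% of each list. Among the 36 found with the upper 50% of the adult lists only it was 13.9%, with an interval of 6.08 to 28.7 that includes 7.20%. It became 13.49% with no other peak within 5000 bp, 5.60% without ES cells and 5.70% without fibroblasts. Without brain it was 3.65%, without liver 5.30% and without both preSertoli lists 5.36%. By width it was 16.5% below 300 bp, 5.49% from 300 to under 500 bp and 1.10% at 500 bp or more. Alternatives for the share on X, and those on autosomes, were chosen after seeing the data. The 11.5% of regions in windows with 2 or more became 6.14% with windows of 50 kb and 43.3% with 1 Mb. Window size changes such a share by construction; for the other changes the cause was not tested. With 1 library per tissue no result has a replicate check, and with unknown depth a missing peak does not show closed chromatin. The planned values for genes near regions, their expression and motifs were not run, for lack of an annotation or genome of the build used here. No paired analysis was possible because no result comes from a test.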
